A study of Mus musculus with 6 samples.

Results

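The cyclin-dependent kinase (CDK) inhibitors and the p53 module were described in biliary epithelial cells (BEC), the cells that line the bile ducts, from mouse livers with and without a conditional deletion of the transcription factor gene Sox9. The genes were Cdkn1a, Cdkn1b, Cdkn2a, Cdkn2b, Cdkn2c, Cdkn2d, Trp53 and Mdm2, taken by symbol, which gave 8 rows of the 25302 in the table. The imprinted inhibitor gene Cdkn1c was not included. RNA sequencing covered 3 Control samples of genotype Sox9fl/fl and 3 Sox9cKO samples of genotype Sox9fl/fl:AlbCre+/-. Both groups therefore carried floxed Sox9 alleles, and the Sox9cKO samples also carried AlbCre, a Cre recombinase driven by the albumin promoter. Effects of the Cre transgene and of the loss of Sox9 cannot be told apart in this design, because no sample had AlbCre without floxed Sox9. The labels do not give the age of the mice or whether the 3 samples of a group came from separate animals. The p-values therefore set a difference against the spread between these samples, which may be technical in part. Sex-linked transcripts, given below, differed within each group.

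The CDK inhibitors slow the cell cycle in 2 families. The CIP/KIP proteins p21 (Cdkn1a) and p27 (Cdkn1b) bind cyclin and CDK complexes of several kinds, whereas the INK4 proteins p16Ink4a (Cdkn2a), p15 (Cdkn2b), p18 (Cdkn2c) and p19Ink4d (Cdkn2d) bind the monomeric kinases CDK4 and CDK6 and so keep the retinoblastoma protein active. Cdkn2a also encodes p19Arf from another first exon, and p19Arf restrains Mdm2, the ubiquitin ligase that degrades the tumour suppressor p53 (Trp53). In turn p53 induces Cdkn1a and Mdm2, and in the liver p16, p15 and p21 are widely used as markers of cell senescence. Total Trp53 RNA does not report the activity of its protein, which is set mainly after translation.

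Cdkn2b was the 1 inhibitor gene that passed the test for a difference between the groups. Its level in Sox9cKO samples was about 10.01 times that in Control samples. Cdkn1b was lower in each Sox9cKO sample, at 74.2% of the Control mean, and did not pass. For Cdkn1a, Trp53 and Mdm2 the groups overlapped and the test was not passed, and Cdkn2a was close to the detection limit. Of the 8 genes, 7 averaged 10 or more normalized reads per sample and were tested with limma. Cdkn2b was the 1 gene called at an adjusted p under 0.05, against 2.97% of the 17153 genes tested (2.03% called higher and 0.939% called lower). The groups did not overlap for 2 of the 7 tested genes, Cdkn2b (higher) and Cdkn1b (lower), against 24.2% of all genes tested (13.4% higher and 10.8% lower). A fold change is given as log2 of Sox9cKO over Control, on the log2(value + 1) scale, and its median over all genes tested was 0.036.

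Depth was 11883496 to 16191990 reads in genes per sample. Genes with any read numbered 24568 to 25084 in Control and 23743 to 24199 in Sox9cKO samples, without overlap. Sox9 itself stood at 6211, 6043 and 6293 normalized reads in Control replicates 1 to 3 and at 3363, 3165 and 3340 in Sox9cKO replicates 1 to 3, which is 53.2% of the Control mean (log2 fold change -0.91, limma adjusted p = 0.00501). The labels do not name the floxed exons, and counts per gene can include reads outside them. Of 10 biliary markers, all were detected, with Spp1 (secreted osteopontin) and Krt19 (a keratin of bile duct cells) at 30026 to 74187 and 11480 to 26648 normalized reads. Of other cell types, 12 hepatocyte markers summed to 22795 to 35488 normalized reads in Control and 32075 to 47717 in Sox9cKO samples, and 10 endothelial markers to 1898 to 44198 and 7014 to 45188. In bulk samples, fewer cells of a type and less RNA per cell cannot be told apart.

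The promoter windows of Cdkn2b and Cdkn1a are shown because they belong to the gene that passed the test and to the gene that p53 is best known to control. Each is the 250 bases before a transcription start in RefSeq (GRCm38.p6), written in the direction of transcription. Cdkn2b is on the minus strand (window chr4:89311033-89311282), and the capitals mark its single match to the Smad element CAGAC, which lies 129 bases upstream of the start. Cdkn1a is on the plus strand (window chr17:29090729-29090978, the first of its annotated starts), and the capitals mark only a p53 site 51 bases upstream. This window also holds a Smad element, left in small letters, 93 bases upstream. The window of the other annotated Cdkn1a start (chr17:29093519-29093768), which lies downstream, is not shown and held no p53 site. Counts per gene do not tell which of these starts was used.
Cdkn2b: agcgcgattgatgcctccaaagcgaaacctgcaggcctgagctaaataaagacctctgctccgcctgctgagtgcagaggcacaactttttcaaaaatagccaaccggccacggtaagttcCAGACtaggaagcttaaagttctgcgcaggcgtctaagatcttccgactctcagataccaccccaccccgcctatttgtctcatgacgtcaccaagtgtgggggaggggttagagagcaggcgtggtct
Cdkn1a: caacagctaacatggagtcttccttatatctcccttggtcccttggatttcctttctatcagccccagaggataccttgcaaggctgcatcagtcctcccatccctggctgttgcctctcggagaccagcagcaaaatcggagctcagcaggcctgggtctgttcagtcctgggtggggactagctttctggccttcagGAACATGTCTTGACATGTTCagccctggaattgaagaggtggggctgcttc
The p53 site was searched as a pair of adjoining consensus decamers (20 bases in all) with up to 1 mismatch. It was found in 25 of 32851 RefSeq windows (0.0761%), and Cdkn1a was the one member with it. CAGAC, searched on both strands, was in 42.2% of windows, so a match is common. Among the 8 genes it was also in windows of Cdkn1a, Cdkn2c and Cdkn2d, which were not called. The Cdkn2b window held no GC box (GGGCGG, in 32.7% of windows), and no window of the 8 genes held the SOX core ACAAT (27.7% of windows). A match describes letters in this window, and the lack of one says nothing of sites elsewhere.

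**Figure D1:**
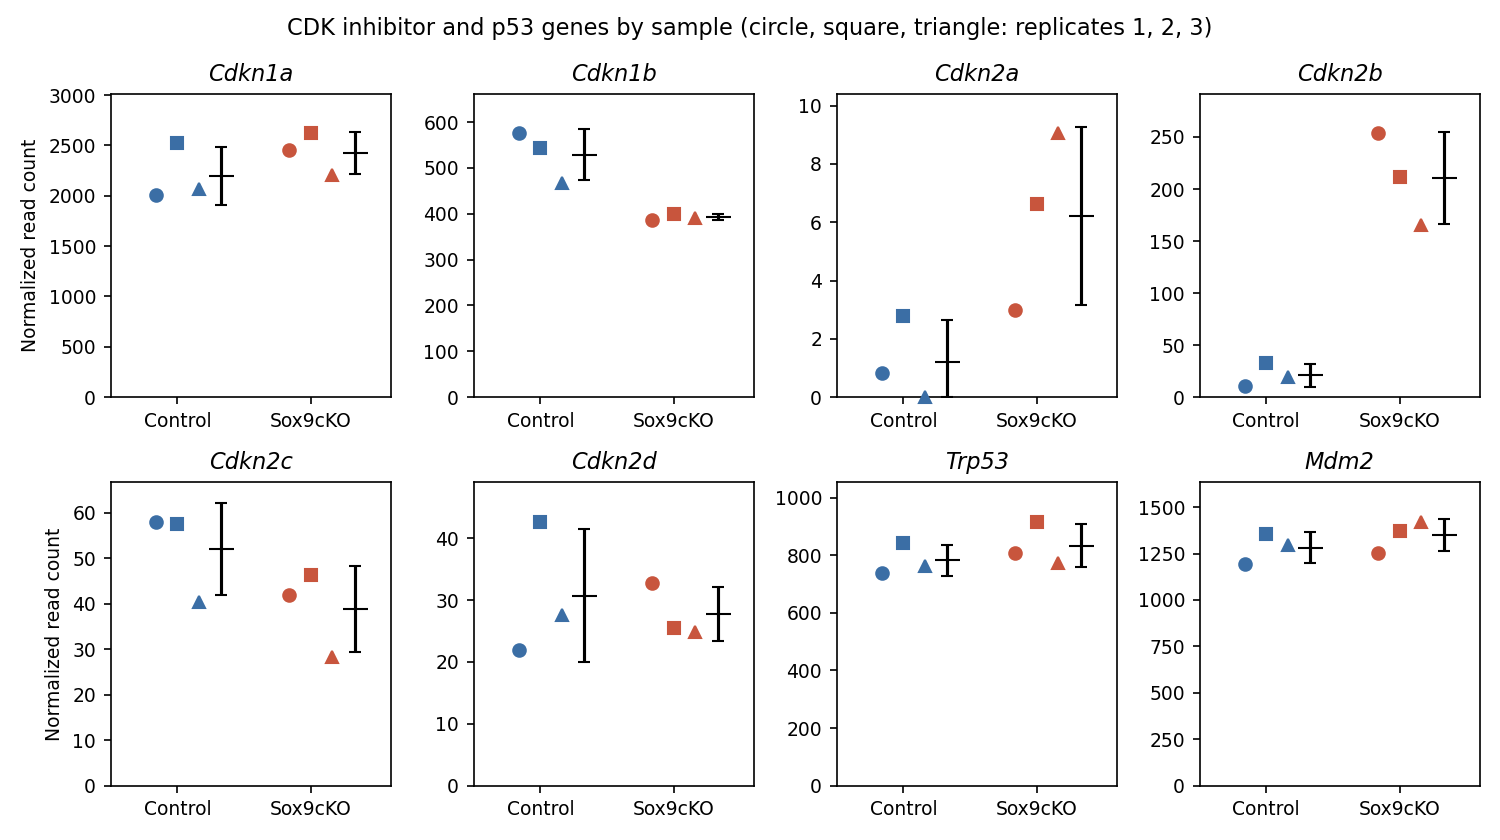
Normalized read count (y axis, linear, a separate range for each gene) of the 8 genes in 3 Control and 3 Sox9cKO samples. Circles, squares and triangles are replicates 1, 2 and 3, and the black marks give the mean ± SD with n = 3, the lower bar drawn no further than 0. The Cdkn2b points of the Sox9cKO samples lie between 165 and 254, far above the Control points at 10.9 to 32.5, and the Cdkn1b points of the Sox9cKO samples lie at 386 to 400, below the Control points at 468 to 576.

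In the CIP/KIP family, Cdkn1a (ENSMUSG00000023067), which encodes p21, the inhibitor that halts the cycle after DNA damage, was at 2004, 2526 and 2065 normalized reads in Control and 2456, 2622 and 2206 in Sox9cKO samples. The ranges overlapped, since Control replicate 2 lay above Sox9cKO replicates 1 and 3. The means were 2198 ± 286 and 2428 ± 209 (SD, n = 3 in each group). The log2 fold change was 0.15 (95% interval -0.16 to 0.46, limma adjusted p = 0.624), so the interval of the fold ran from 0.893 to 1.37. Per length it was the highest of the 8 genes in both groups, at 619 ± 80.4 normalized reads per kb of exon in Control and 683 ± 58.9 in Sox9cKO samples. That level was above 96.5% and 96.3% of the genes tested. A transcript on the opposite strand, 1700023B13Rik, shares 273 exonic bases with Cdkn1a. It had 6.91 to 19.8 normalized reads per sample, little beside the Cdkn1a counts.

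Cdkn1b (ENSMUSG00000003031), which encodes p27, an inhibitor kept high in resting cells mostly by control of protein breakdown, was at 576, 543 and 468 normalized reads in Control and 386, 400 and 392 in Sox9cKO samples. Every Sox9cKO sample was below every Control sample. The means were 529 ± 55.4 and 392 ± 6.90 (SD, n = 3). The log2 fold change of -0.42 (95% interval -0.73 to -0.12, SE 0.13) had an adjusted p of 0.148 in limma, above the threshold of 0.05, although the interval of this single gene did not include 0. It was not called under any of the 15 alternatives (fold change -0.51 to -0.36, adjusted p = 0.0785 to 0.393 in limma, edgeR or DESeq2). Summed per length, Cdkn1a and Cdkn1b came to 735 ± 82.7 normalized reads per kb in Control and 770 ± 59.7 in Sox9cKO samples, a difference smaller than the SD of either group.

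In the INK4 family, Cdkn2b (ENSMUSG00000073802) encodes p15, which is best known as the inhibitor that TGF-beta induces in epithelial cells. It had 10.9, 32.5 and 19.6 normalized reads in Control and 254, 212 and 165 in Sox9cKO samples, from 13, 35 and 17 reads and 255, 224 and 146 reads. The lowest Sox9cKO sample was well above the highest Control sample, and the Control samples were low and spread widely for their size. The means were 20.999 ± 10.8 and 210.2 ± 44.2 (SD, n = 3). The log2 fold change was 3.37 (95% interval 2.44 to 4.29, SE 0.39, limma adjusted p = 0.00687), and the interval of the fold ran from 5.43 to 19.6. Cdkn2b was called higher under all 15 alternatives, with fold changes of 2.99 to 3.73 on the log2 scale and adjusted p-values of 1.72e-14 to 0.0342 in limma, edgeR or DESeq2. The largest of these came from leaving out Control replicate 3.

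Cdkn2a (ENSMUSG00000044303), whose counts here pool p16Ink4a and p19Arf, had 1, 3 and 0 reads in Control and 3, 7 and 8 reads in Sox9cKO samples. These were 0.841, 2.78 and 0 against 2.98, 6.62 and 9.06 normalized reads, so the normalized values did not overlap while the reads met at 3. Over the groups, 18 reads against 4 gave a ratio of 4.79 (95% exact interval 1.58 to 19.4, for counting error alone) after scaling to the samples' size factors. Its mean was under the filter. The exact permutation test on the normalized values gave a two-sided p = 0.1, the smallest that 3 samples against 3 allow, and limma with no filter gave an adjusted p of 0.198. Whether these reads came from p16Ink4a, p19Arf or both cannot be told from counts per gene.

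Cdkn2c (ENSMUSG00000028551), which encodes p18, was at 58.0, 57.5 and 40.3 normalized reads in Control and 41.8, 46.3 and 28.3 in Sox9cKO samples. Control replicate 3 fell within the Sox9cKO range. The log2 fold change was -0.42 (95% interval -1.11 to 0.26, limma adjusted p = 0.514). Cdkn2d (ENSMUSG00000096472), which encodes p19Ink4d, was at 21.9, 42.7 and 27.7 in Control and 32.8, 25.5 and 24.9 in Sox9cKO samples, and the 2 groups overlapped. Its log2 fold change of -0.10 (95% interval -0.88 to 0.68, limma adjusted p = 0.916) turned to 0.16 without Control replicate 2. Changes within these intervals could not be told from 0.

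**Figure D2:**
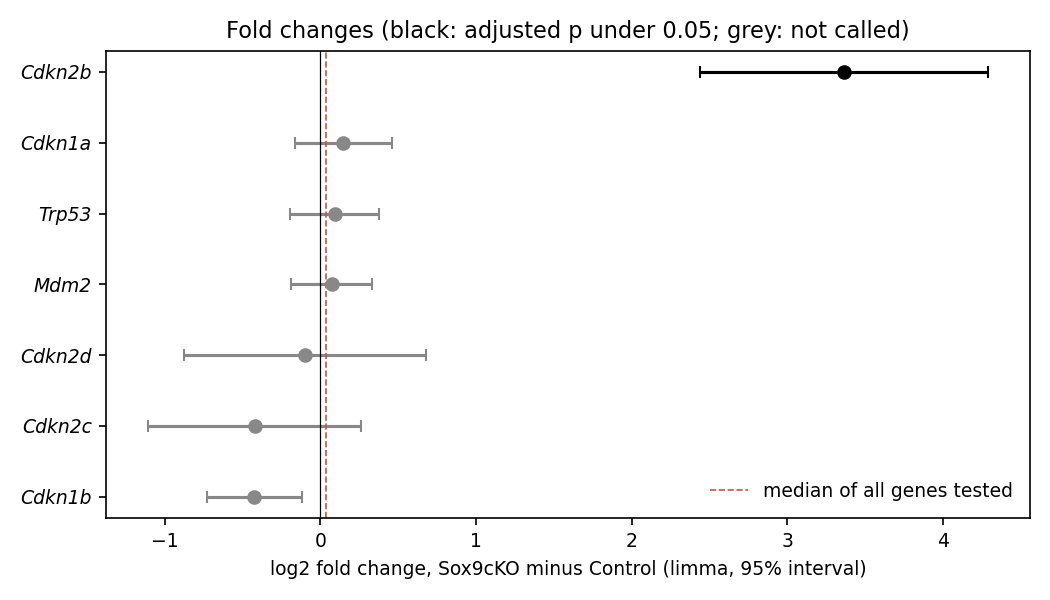
Log2 fold change (x axis, Sox9cKO minus Control) of the 7 tested genes with its 95% limma interval. The solid line is at 0 and the dashed line is the median of all genes tested. Cdkn2b is at 3.37, the Cdkn1b interval lies below 0 without passing adjustment, and the intervals of the other 5 genes cross 0.

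The rise in Cdkn2b changed the order of the inhibitors. On the scale of normalized reads per kb of exon, the Control order from high to low was Cdkn1a (619), Mdm2 (252), Trp53 (193), Cdkn1b (116), Cdkn2d (19.5), Cdkn2c (19.3), Cdkn2b (15.1) and Cdkn2a (1.03). Sample ranges overlapped between Cdkn2d and Cdkn2c and between Cdkn2c and Cdkn2b, and the other neighbours were separate. In Sox9cKO samples Cdkn2b stood at 151 ± 31.8, between Trp53 (206) and Cdkn1b (86.2 ± 1.52), with sample ranges separate from both. Its mean level per kb was above 23.4% of the genes tested in Control and above 77.6% in Sox9cKO samples. The remaining order kept Cdkn2d (17.6), Cdkn2c (14.4) and Cdkn2a (5.31) at the bottom, and the first 2 of these overlapped.

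Within the INK4 family, Cdkn2b made up 17.8%, 31.5% and 30.2% of the summed level per kb in Control replicates 1 to 3. In Sox9cKO replicates 1 to 3 its share was 82.4%, 79.6% and 77.7%. The summed INK4 level per kb was 44.1, 74.3 and 46.7 in Control and 221, 191 and 153 in Sox9cKO samples, a ratio of means of 3.43. Without Cdkn2b the same sum was 36.2, 50.9 and 32.6 against 39.0, 39.1 and 34.1, which overlapped. Set against the CIP/KIP gene nearest to it in level, the ratio of Cdkn2b to Cdkn1b per kb went from 0.0621, 0.196 and 0.137 in Control to 2.15, 1.73 and 1.38 in Sox9cKO samples. Cdkn1a still made up most of the inhibitor RNA per kb, with a mean of 78.3% in Control and 71.4% in Sox9cKO samples, while Cdkn2b went from 1.86% to 15.7%. These sums describe the same counts as above and are not a further test.

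**Figure D3:**
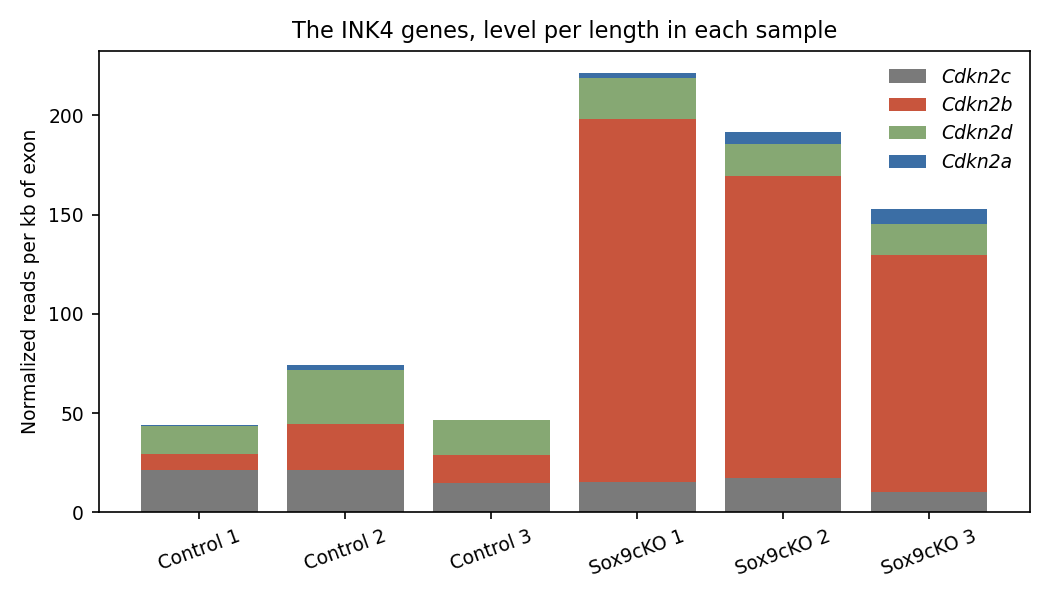
Level of the 4 INK4 genes in each sample (y axis, normalized reads per kb of exon, from 0), stacked. Cdkn2b fills most of each Sox9cKO bar, and the other 3 genes together reach similar heights in both groups, at 32.6 to 50.9 in Control and 34.1 to 39.1 in Sox9cKO samples.

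Neither gene of the p53 and Mdm2 loop passed the test. Trp53 (ENSMUSG00000059552) was at 738, 844 and 764 normalized reads in Control and 809, 917 and 774 in Sox9cKO samples, with means of 782 ± 55.1 and 833 ± 74.3 (SD, n = 3). Mdm2 (ENSMUSG00000020184) was at 1194, 1355 and 1298 in Control and 1253, 1371 and 1422 in Sox9cKO samples, with means of 1282 ± 81.9 and 1349 ± 86.9. In both genes the groups overlapped. The log2 fold change was 0.09 for Trp53 (95% interval -0.20 to 0.38, limma adjusted p = 0.757) and 0.07 for Mdm2 (-0.19 to 0.33, adjusted p = 0.790). On the linear scale the intervals ran from 0.873 to 1.30 and from 0.877 to 1.26, so a change beyond these bounds lies outside the 95% interval of either gene.

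Ratios within the p53 loop overlapped between the groups. The ratio of Mdm2 to Trp53 per kb was 1.31 ± 0.0407 in Control and 1.29 ± 0.146 in Sox9cKO samples, and that of Cdkn1a to Trp53 was 3.19 ± 0.188 and 3.32 ± 0.120 (SD, n = 3). A processed copy, Trp53-ps, was listed at 2.98 to 13.2 normalized reads per sample. Reads that the counting split between it and Trp53 would be few at that level, though how the authors treated such reads is not given in the sources used here.

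The wider p53 pathway was read from lists that name no gene of the 8. Of 31 p53 target genes, 31 were tested and 0 were called by limma, with 20 above 0, 11 below 0 and a median log2 fold change of 0.09 against 0.036 over all genes tested. At an unadjusted p under 0.05 there were 8, where all genes tested had 17.8%, and edgeR called 0 and DESeq2 called 2. Groups did not overlap for 3 higher and 3 lower targets, against 13.4% higher and 10.8% lower of all genes tested. The most abundant by count were Btg2, an antiproliferative gene that also responds to acute stress, and Plk2, a kinase. Btg2 was at 6040, 5059 and 6233 normalized reads in Control and 4275, 3798 and 2964 in Sox9cKO samples, with every Sox9cKO sample lower (log2 fold change -0.66, limma adjusted p = 0.0899). Plk2 overlapped, at 3070, 4526 and 3122 against 4322, 4335 and 2617 (0.06, adjusted p = 0.936). When limma was given the replicate number as a blocking term, 8.05% of all genes were called and 2 targets were among them, Polk (higher) and Btg2 (lower, adjusted p = 0.0417).

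Among 22 regulators and partners of p53, 20 were tested and 1 was called by limma, where 2.97% of all genes tested were. This was Sirt1, a deacetylase that acts on p53 among many other proteins. Sirt1 was at 2113, 1724 and 1962 normalized reads in Control and fell to 1219, 1194 and 1277 in Sox9cKO samples (log2 fold change -0.65, limma adjusted p = 0.0328). The call was lost on leaving out any one sample other than Control replicate 2, with adjusted p from 0.0810 to 0.150. The list had 7 genes above 0 and 13 below, with a median of -0.07. Trp53bp2 joined Sirt1 as lower with the replicate block.

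**Figure D4:**
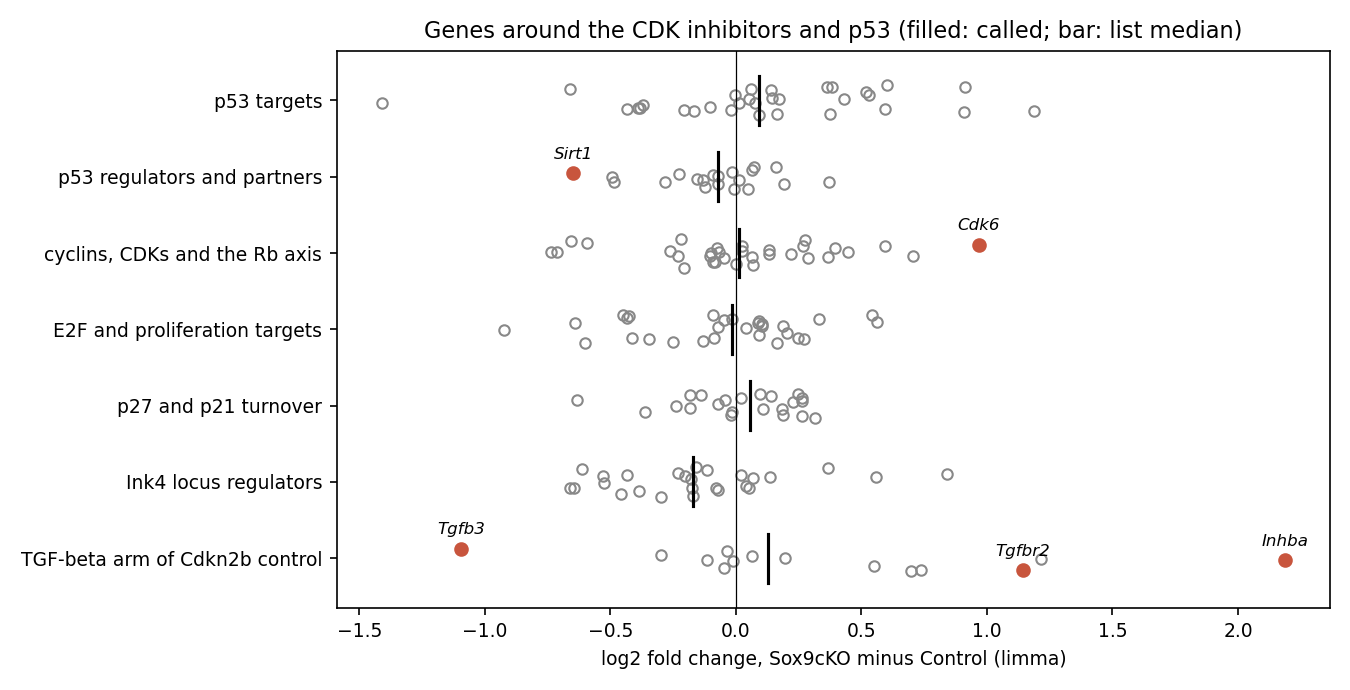
Log2 fold change (x axis, Sox9cKO minus Control, limma) of each tested gene in 7 lists around the CDK inhibitors and p53, with vertical jitter for legibility. Filled points are genes with an adjusted p under 0.05, open points are not called, and the black bar is the median of the list, between -0.17 and 0.13 in all 7. Inhba, Tgfbr2 and Tgfb3 in the TGF-beta list, Cdk6 and Sirt1 are the 5 called genes.

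The inhibitors act on cyclins, CDKs and, through them, the retinoblastoma axis. Among 32 tested genes of this kind 1 was called by limma, where 2.97% of all genes were, and this was Cdk6, a direct binding partner of p15. It was at 1152, 1027 and 1414 normalized reads in Control and rose to 1862, 2457 and 2737 in Sox9cKO samples (log2 fold change 0.97, limma adjusted p = 0.0406). Its adjusted p was 0.0528 with edgeR, and 0.0643 to 0.163 in limma on leaving out any one sample other than Sox9cKO replicate 1. In the list as a whole 17 genes were above 0 and 15 below, with a median of 0.01. The replicate block added Wee1, a kinase that holds back mitosis, as lower.

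Genes that E2F factors switch on in dividing cells lie downstream of these inhibitors. Of 29 tested, 0 were called by limma with or without the replicate block, with 14 above 0, 15 below and a median of -0.02. At an unadjusted p under 0.05 there was 1, edgeR and DESeq2 each called 0, and groups did not overlap for 0 higher and 3 lower genes. Of all genes tested, 17.8% had an unadjusted p under 0.05, and groups did not overlap for 13.4% higher and 10.8% lower. Mcm6, part of the replicative helicase, was at 1157, 864 and 1069 normalized reads in Control and 1118, 1026 and 1160 in Sox9cKO samples (log2 fold change 0.11, adjusted p = 0.755 in limma). Mki67, the proliferation marker, was at 428, 1362 and 195 against 702, 1105 and 473 (0.56, limma adjusted p = 0.721), so the Sox9cKO samples all lay within the Control range.

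Of 22 genes that control the turnover of p27 and p21 proteins or the transcription of Cdkn1b, 0 were called by limma, with 12 above 0, 10 below and a median of 0.06. At an unadjusted p under 0.05 there were 3, where all genes tested had 17.8%, and edgeR and DESeq2 each called 0. Groups did not overlap for 4 higher and 2 lower genes, against 13.4% higher and 10.8% lower of all genes tested. Ddb1, an adaptor of ubiquitin ligases, was at 4564, 3774 and 4408 normalized reads in Control and 5802, 5002 and 5054 in Sox9cKO samples, with no overlap (log2 fold change 0.32, limma adjusted p = 0.238). Foxo3, a transcription factor known to induce Cdkn1b, was at 3855, 2336 and 2916 against 2224, 1600 and 1982, with no overlap (-0.63, limma adjusted p = 0.174). With the replicate block in limma Foxo3 was the only gene of the list called (lower, adjusted p = 0.0158), while Cdkn1b was not called (0.0858). Of all genes tested, 8.05% were called with this block.

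Of 26 regulators of the Ink4 locus, among them the Polycomb proteins that silence it, 0 were called by limma, with 4 at an unadjusted p under 0.05, 0 called by edgeR and 2 by DESeq2. A total of 8 were above 0 and 18 below, with a median of -0.17, the lowest of the 7 lists shown, and groups did not overlap for 0 higher and 6 lower genes. Over all genes tested these shares were 13.4% and 10.8%, and 17.8% had an unadjusted p under 0.05. Ets2, an activator of the locus, was at 17179, 15863 and 18869 normalized reads in Control and 19486, 14608 and 19619 in Sox9cKO samples (log2 fold change 0.04, limma adjusted p = 0.932). Kdm6b, a demethylase that opposes Polycomb, was at 13167, 16578 and 17260 against 13068, 14196 and 12601 (-0.23, limma adjusted p = 0.448). With the replicate block limma called 0 higher and 2 lower, where 8.05% of all genes tested were called. Ezh2, the Polycomb methyltransferase, was 1 of these 2 (limma adjusted p = 0.0270).

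The list for the TGF-beta arm of Cdkn2b control had 14 tested genes, with a median log2 fold change of 0.13. Limma called 2 higher and 1 lower, where 2.03% and 0.939% of all genes tested were. The list was chosen with earlier results of these data known, and an action of its genes on Cdkn2b was not tested. Inhba, which encodes a subunit of the ligand activin A, was at 951, 555 and 1007 normalized reads in Control and rose to 2646, 5070 and 3740 in Sox9cKO samples (log2 fold change 2.19, limma adjusted p = 0.0122). Tgfbr2, the type II TGF-beta receptor, rose from 1483, 1892 and 1646 to 4345, 3500 and 3265 (1.14, adjusted p = 0.0105 in limma). Tgfb3, a ligand, fell from 450, 313 and 365 to 172, 163 and 186 (-1.09, adjusted p = 0.0207 in limma). So the TGF-beta receptor and an activin subunit were higher, while 1 TGF-beta ligand was lower.

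These calls were not equally stable in limma. The Inhba call was lost without Sox9cKO replicate 3 (adjusted p = 0.0511). That of Tgfbr2 was lost without Control replicate 1 or Control replicate 3 (0.0580 and 0.0520). The Tgfb3 call was lost without any one sample other than Control replicate 2 (0.0578 to 0.0878). With the replicate block Tgfb2, Inhbb and the signal carrier Smad3 were also called higher, which made 5 higher and 1 lower. Of all genes tested, 8.05% were called with this block.

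Markers of other cells and of handling moved with some groups, and these are the values beside the Cdkn2b result. The 10 biliary markers summed to 117155, 79194 and 97307 normalized reads in Control and 101162, 72322 and 78046 in Sox9cKO samples, which overlapped. Of the 10, 3 were above 0 and 7 below, 5 had an unadjusted p under 0.05, and limma called Krt7, a keratin of bile duct cells, higher and Sox9 itself lower. For this list and those below, the shares over all genes tested were 17.8% at an unadjusted p under 0.05 and 2.97% called. The share called with the replicate block was 8.05%. No biliary marker was called higher on leaving out any one sample other than Sox9cKO replicate 2, and with the replicate block 3 were called lower. The endothelial sums were 13664, 44198 and 1898 in Control and 35012, 45188 and 7014 in Sox9cKO samples. All 10 endothelial markers had a log2 fold change above 0, with 0 called by limma, edgeR or DESeq2 and 0 at an unadjusted p under 0.05. The hepatocyte sums were 35488, 22795 and 26984 in Control and 47196, 32075 and 47717 in Sox9cKO samples, so Sox9cKO replicates 1 and 3 lay above every Control sample. Of 12 hepatocyte markers, 10 were above 0, 4 had an unadjusted p under 0.05 and 2 were called higher by limma, Tat and Serpina1b, the latter one of a family of near-identical copies. The 11 mesenchymal markers summed to 1819 to 2592 normalized reads in Control and 2007 to 3380 in Sox9cKO samples, with 0 called by limma, edgeR or DESeq2 and 0 at an unadjusted p under 0.05.

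Of the leukocyte and erythroid markers, 10 were in the table and summed to 1070 to 1159 normalized reads in Control and 1537 to 1836 in Sox9cKO samples, without overlap. Of the 8 that were tested, 1 was above 0 and 7 below (median -0.58), with 4 at an unadjusted p under 0.05. Csf1r, a receptor of macrophages, made up most of the sum, was the one marker above 0 and was called higher by limma, a call lost without Control replicate 1, Control replicate 3 or Sox9cKO replicate 2. Ptprc, the general leukocyte marker, was at 37.0, 36.2 and 19.6 in Control and 16.9, 12.3 and 1.13 in Sox9cKO samples. The 15 immediate early and dissociation genes summed to 140942 to 210121 normalized reads in Control and 103173 to 125157 in Sox9cKO samples, with no overlap. Of these, 13 were below 0 (median -0.51) and 10 had an unadjusted p under 0.05, against 17.8% of all genes tested. Limma called 1 lower, Atf3, and 1 higher, Dusp1, while DESeq2 and limma with the replicate block each called 6 lower and 1 higher. With a sample left out limma called 0 (without Control replicate 1 or 3) to 5 (without Control replicate 2). The part of all these marker groups in the Cdkn2b and Cdkn1b values was not tested. No marker of these lists was at 0 in all 6 samples.

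The samples also differed in sex-linked transcripts, which the labels do not mention. Xist was at 27852 to 32279 normalized reads in Control replicates 1 and 3 and Sox9cKO replicate 1, and Ddx3y was at 2256 to 2323 in the other 3 samples. Cdkn2b was higher in Sox9cKO samples within each set, at 10.9 and 19.6 against 254 in the first and 32.5 against 212 and 165 in the second. Cdkn1b was lower within each set, at 576 and 468 against 386 and at 543 against 400 and 392. Each set holds 1 or 2 samples of a group, and the part of sex-linked differences was not tested.

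The genes beside Cdkn2b were examined after its value was seen. In RefSeq (GRCm38.p6) the protein-coding order along the chromosome is Ifne, Mtap, Cdkn2a, Cdkn2b and Dmrta1. Mtap, which encodes an enzyme of methionine salvage and lies on the far side of Cdkn2a, was at 189, 193 and 233 normalized reads in Control and 374, 390 and 369 in Sox9cKO samples, with no overlap. Its log2 fold change was 0.89 (limma adjusted p = 0.0222). This call was lost on leaving out any one sample other than Control replicate 3 (adjusted p = 0.0597 to 0.112 in limma). Ifne, an interferon gene, and Dmrta1, a transcription factor gene, stayed at or under 4.73 and 5.66 normalized reads with overlapping groups. Mtap was the only gene of this stretch tested besides Cdkn2b, for which the stretch was chosen. It was called higher, as were 2.03% of all genes tested. Ifne, Cdkn2a and Dmrta1 were too low to test.

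**Figure D5:**
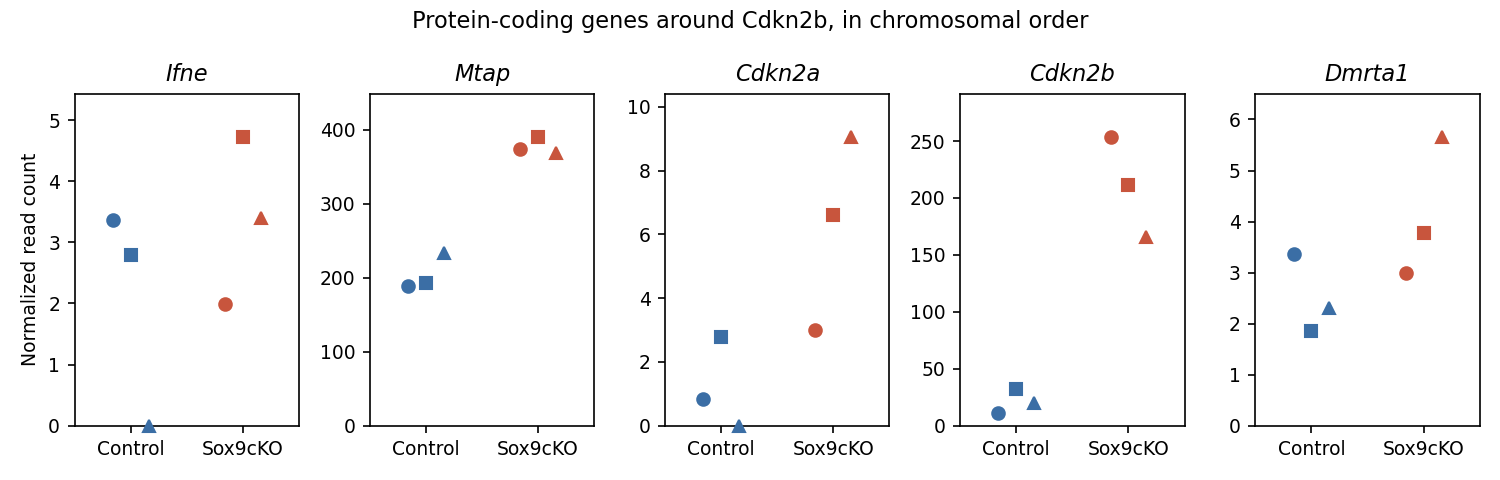
Normalized read count (y axis, linear, a separate range for each gene) of 5 neighbouring protein-coding genes in chromosomal order, with circles, squares and triangles for replicates 1, 2 and 3. Cdkn2b and Mtap show separate groups at 10 or more normalized reads, while Ifne, Cdkn2a and Dmrta1 stay under 10 in every sample.

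The long noncoding gene Trp53cor1, named for its link to p53 and also chosen after its values were seen, was at 5.04, 13.0 and 13.8 normalized reads in Control and 6.96, 7.56 and 5.66 in Sox9cKO samples. It was under the filter, and the groups overlapped.

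Among the 11082 tested genes that averaged 50 or more normalized reads, the 2 whose pattern over the 6 samples was most like that of each inhibitor were found by Pearson's r of log2(value + 1). With 6 points that share libraries, high values of r arise readily and are given as a description. The genes were picked by likeness over the same 6 samples, so whether they were called is not a further test. For Cdkn2b these were Ivl (r = 0.998), which encodes involucrin, a protein of the cornified envelope of squamous epithelia, and Agpat4 (r = 0.997), an enzyme of phospholipid synthesis. Ivl was at 630, 1169 and 901 normalized reads in Control and rose to 5515, 4668 and 3482 in Sox9cKO samples (log2 fold change 2.36, limma adjusted p = 0.00553). Agpat4 rose from 87.4, 140 and 107 to 392, 375 and 360 (1.77, adjusted p = 0.00609 in limma). In Ivl, Agpat4 and Cdkn2b alike, Control replicate 1 was the lowest sample and Sox9cKO replicate 1 the highest.

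For Cdkn1b the nearest genes were Fign (r = 0.993), a microtubule-severing protein, and Ints6 (r = 0.992), a subunit of the Integrator complex. Fign was at 147, 132 and 81.8 normalized reads in Control and 40.8, 44.4 and 49.8 in Sox9cKO samples (log2 fold change -1.36, limma adjusted p = 0.0470), a call that was lost without any one sample other than Control replicate 3 (0.0928 to 0.192 in limma). For the other tested genes the closest were Abca7 (r = 0.998) and Gosr2 (0.996) for Cdkn1a, Igtp (0.993) and Rpl37rt (0.989) for Cdkn2c, and Xrcc1 (0.993) and Pdlim2 (0.978) for Cdkn2d. Trp53 was nearest to Spred2 (0.987) and Inpp5b (0.983), and Mdm2 to Proser1 (0.982) and Thoc2 (0.973). None of these last 10 genes was called by limma, their adjusted p-values being 0.294 to 0.963.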

How the data were processed

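Total RNA of 6 biliary epithelial samples was sequenced with a stranded kit that adds unique molecular identifiers, per the labels' protocols. The authors deposited normalized counts, a signal per gene and sample. Every deposited value was a whole number of reads (100% within 0.001 reads) divided by 1 size factor per sample (0.868 to 1.19). DESeq2 1.36.0 and GRCm39 are named, with no role, in the submitters' processing notes. The aligner, the annotation, the use of strand and the use of molecular identifiers are not given in the sources used here, so reads may include PCR copies and counting intervals cover counting error only. All 8 genes of interest were in the table.

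Genes with a mean of at least 10 were tested as log2(value + 1) by limma 3.58.1 (R 4.3.3; lmFit, then eBayes with trend), two-sided, with Benjamini-Hochberg adjustment over 17153 genes and a threshold of 0.05. The fit was repeated with a pseudocount of 0.1 or 5, without the filter, with a filter at 50, with TMM scaling, with edgeR 4.0.16, DESeq2 1.42.0 (both on the recovered reads), with replicate number as a block, and without each sample in turn. The scripts were tested on simulated data. Same-numbered samples of the 2 groups deviated together (correlations of 0.207, 0.472 and 0.542), although the labels state no pairing. The numbers were used as pairs only in the fits with a replicate block. The main fit had group alone, so its p-values and intervals are unpaired.

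Levels per kb used exon lengths from GENCODE M21 (GRCm38), which may differ from the authors' annotation. Promoters came from RefSeq (GRCm38.p6), and all 8 genes matched. The members and lists were chosen with earlier results of these data known. All 8 genes were described. From each list up to 4 called genes by p-value were named, or the 2 of highest count where none was called, and marker genes beside their sum. The genes named as called with the block, by locus, by likeness (the 2 highest r) or as overlapping are said to be so.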

Additional observations from a re-analysis of the deposited data

How the results depend on the processing

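Cdkn2b was called higher under all 15 alternatives, and Cdkn1a, Cdkn1b, Cdkn2c, Trp53 and Mdm2 kept their direction and were not called under any that gave them a value. The replicate block changed no call of the 7 genes tested. Cdkn2d turned from -0.10 to 0.157 on the log2 scale without Control replicate 2, in a range of -0.310 to 0.157 over the samples left out. For Cdkn2a, untested, the log2 difference of 1.82 became 3.15 with a pseudocount of 0.1 and 0.840 with 5, since values near 0 depend on it, and ran from 1.35 to 2.31 over the samples left out. At a filter of 50, Cdkn2c and Cdkn2d had no value. Over all genes tested, limma called 510 (349 higher and 161 lower), against 1240 (817 and 423) with DESeq2, 1381 (868 and 513) with the replicate block in limma and 1160 (664 and 496) with edgeR and the replicate block. All 510 were among each of these larger sets, and 199 to 387 were called with a sample left out. Depth limits Cdkn2a most, with 0 to 8 reads per sample.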
